A study of Mus musculus with 4 samples.

Results

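Peroxiredoxins and the Keap1 redox sensor were followed as 7 genes chosen by name: Prdx1, Prdx2, Prdx3, Prdx5, Prdx6, Keap1 and Nfe2l2. These are 7 of the 11049 genes listed in all 3 library tables. Each gene's UMIs (unique molecular identifiers, 1 per captured RNA molecule) were summed over 3 classes of cells in each library. Endothelial cells were those with at least 3 UMIs of Pecam1, Cdh5, Kdr and Tie1 together and at least 12 of these per 10000 UMIs. They were divided into cells without and cells with any UMI of the tubule genes Slc34a1, Lrp2, Slc12a1 or Slc12a3. All remaining cells formed the third class.

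The data were single-cell RNA libraries, made with a droplet-based 3' kit, of kidney cells from C57BL/6J mice aged 10 to 14 weeks. The groups were A2 HTN (hypertension induced with angiotensin II), SS HTN (salt-sensitive hypertension), A2 Ctrl (saline) and SS Ctrl (normal diet). Kidneys of all mice in a group were pooled, and cells were taken with antibodies to CD31 and then to podoplanin, so each group was 1 library with no replicate. The labels give neither an angiotensin dose nor the procedure behind the salt sensitivity. The 2 control libraries share a table in which barcode endings separate them, and the sources used here do not say which control each ending is. They are called control library 1 and control library 2, and their sum is the control in the comparisons below.

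Peroxiredoxins are thiol enzymes that reduce hydrogen peroxide and organic peroxides, and most of them are recycled by thioredoxin and thioredoxin reductase. KEAP1 is the adaptor through which a CUL3 ubiquitin ligase marks the transcription factor NRF2, the product of Nfe2l2, for degradation. When cysteines of KEAP1 are oxidised or alkylated, NRF2 accumulates and, with a small MAF protein, binds antioxidant response elements in genes of the thioredoxin and glutathione systems. In endothelium the pathway is studied for its part in buffering peroxide from NADPH oxidases and mitochondria.

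The libraries held 2837 cells and 7479337 UMIs (A2 HTN), 3284 cells and 6471741 UMIs (SS HTN), 2406 cells and 2801925 UMIs (control library 1) and 2008 cells and 1727731 UMIs (control library 2). At most 2 cell barcodes were shared by any pair of libraries. Endothelial cells without a tubule UMI numbered 675 in A2 HTN, 722 in SS HTN, 5 in control library 1 and 68 in control library 2. Their median depth was 4820 UMIs in A2 HTN, 2348 UMIs in SS HTN, 1492 UMIs in control library 1 and 2695 UMIs in control library 2. The 5 cells of control library 1 hold 8323 UMIs in all, so the levels of that library in this class say little. Levels are UMIs scaled to a total of 1000000 over the 11049 genes (CPM). For a count of 0 UMIs, the level of 3 UMIs is given as a limit. In those 5 cells this limit is 360 CPM, and the upper end of the exact 95% interval is 443 CPM. Shown beside the levels, all intervals are exact 95% intervals that cover counting error only. UMIs tag the 3' end, so CPM does not scale with gene length, but capture differs between genes.

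The class matched its markers. The 9 endothelial markers that the rule did not use summed to 13112 CPM in A2 HTN, 11089 CPM in SS HTN, 12375 CPM in control library 1 and 13303 CPM in control library 2, against 950 to 2368 CPM in the remaining cells. Of the lymphatic markers, 2 of 7 are in all tables, and they summed to 119 CPM in A2 HTN, 98.3 CPM in SS HTN and 78.6 CPM in the control. Prox1, the factor that defines lymphatic endothelium, had 4 UMIs in A2 HTN, 23 UMIs in SS HTN and 0 UMIs in the control. The class holds endothelial cells of every kind, and lymphatic cells were not separated from it. The 14 tubule markers outside the rule summed to 620 CPM in A2 HTN, 1109 CPM in SS HTN and 1138 CPM in the control. The same 14 reached 15016 to 17698 CPM in the remaining cells, which are rich in tubule RNA in every library. No kidney cell type is known to lack these 7 genes, so no class gives a background level for free RNA.

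In mouse GRCm38, Prdx1 (ENSMUSG00000028691) lies at chr4:116685544-116700822 on the plus strand, Prdx2 (ENSMUSG00000005161) at chr8:84969587-84974834 on the plus strand and Prdx3 (ENSMUSG00000024997) at chr19:60864051-60874556 on the minus strand. Prdx5 (ENSMUSG00000024953) lies at chr19:6906697-6910106 on the minus strand and Prdx6 (ENSMUSG00000026701) at chr1:161240112-161251219 on the minus strand. Keap1 (ENSMUSG00000003308) lies at chr9:21229730-21239361 and Nfe2l2 (ENSMUSG00000015839) at chr2:75675513-75704641, both on the minus strand. Some of these genes overlap others on the opposite strand: Prdx2 overlaps Rnaseh2a by 181 bases and Junb by 351 bases, Prdx5 overlaps Trmt112 by 409 bases, and Keap1 overlaps its antisense gene Gm16754 by 3317 bases. The sources used here do not state whether counting used strand, and without strand the reads of such partners cannot be told apart. On the same strand, Nfe2l2 overlaps the snRNA gene Gm24996 by 99 bases, a pair that strand does not separate. Prdx6 and Prdx2 also have near-identical copies (Prdx6b, Prdx6-ps2, Prdx2-rs3), so their counts are uncertain to that extent.

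The RefSeq promoter table (GRCm38.p6, 250 bases before to 50 after a gene's start) holds 6 of the 7 genes; Prdx6 is not among them. The core of the antioxidant response element that NRF2 binds was searched as TGACNNNGC, or its reverse complement GCNNNGTCA, in the whole window. Of 32851 promoters of that length, 4071 (12.4%) hold it, and of the 6 genes 2 do. The 250 bases before the start are shown for Prdx1 and Nfe2l2, which hold the core and were the 2 genes higher in endothelial cells in all 4 libraries, and for Keap1, the sensor, with the match in capitals and each sequence read along its gene's strand.
Prdx1: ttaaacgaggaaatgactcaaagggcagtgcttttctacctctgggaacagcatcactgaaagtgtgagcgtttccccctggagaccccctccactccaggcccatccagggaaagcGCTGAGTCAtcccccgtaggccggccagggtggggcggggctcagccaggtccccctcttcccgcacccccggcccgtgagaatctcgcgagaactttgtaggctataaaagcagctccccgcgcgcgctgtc
Nfe2l2: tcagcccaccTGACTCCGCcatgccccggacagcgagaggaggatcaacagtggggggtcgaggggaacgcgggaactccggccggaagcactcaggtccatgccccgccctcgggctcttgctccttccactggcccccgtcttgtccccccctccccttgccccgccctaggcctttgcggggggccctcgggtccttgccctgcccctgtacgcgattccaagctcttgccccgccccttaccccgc
Keap1: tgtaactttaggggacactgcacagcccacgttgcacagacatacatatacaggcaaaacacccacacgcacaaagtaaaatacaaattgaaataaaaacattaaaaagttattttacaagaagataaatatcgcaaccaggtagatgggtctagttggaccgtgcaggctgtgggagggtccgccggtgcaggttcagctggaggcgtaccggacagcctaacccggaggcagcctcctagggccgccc

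The Prdx1 sequence is chr4:116685349-116685598 on the plus strand, that of Nfe2l2 is chr2:75704664-75704913 on the minus strand and that of Keap1 is chr9:21239333-21239582 on the minus strand. For Prdx1 and Keap1 the gene start of the coordinates given first lies inside the window, upstream of the RefSeq start. In Prdx1 the core lies on the minus strand. The first letter of its match, as shown along the gene's strand, stands 133 bases before the RefSeq start. In Nfe2l2, whose product can act on its own gene, the core is on the gene's strand and begins 240 bases before the start. The windows of Keap1, Prdx2, Prdx3 and Prdx5 hold no match, which says only that these letters are not in that window.

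Within each library, endothelial cells without tubule UMIs stood above the remaining cells in Prdx1 and Nfe2l2 in all 4 libraries, and in Prdx2 in the 3 libraries with more than 5 such cells. Prdx3 was also higher in those 3 libraries, with an interval that includes 0 in control library 2. Prdx5, Prdx6 and Keap1 showed no such shared difference. The genes are taken first by level in each library, enzymes before regulators, and the comparison of hypertension with control follows.

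Prdx1, the abundant peroxiredoxin of cytosol and nucleus, reached 585 CPM in endothelial cells of A2 HTN, 489 CPM in SS HTN, 481 CPM (4 UMIs) in control library 1 and 581 CPM in control library 2. The remaining cells had 231 CPM in A2 HTN, 251 CPM in SS HTN, 185 CPM in control library 1 and 225 CPM in control library 2. All 4 endothelial values were above all 4 values of the remaining cells. The log2 ratio of endothelial over remaining cells was 1.32 in A2 HTN, 0.95 in SS HTN, 1.35 in control library 1 and 1.35 in control library 2, with a mean of 1.24 ± 0.20 (SD, n = 4 libraries). It was positive in 4 of 4 libraries, for which the two-sided exact sign-flip permutation test gives p = 0.125, the smallest that 4 libraries allow. Without the 5 cells of control library 1 the mean was 1.21 ± 0.22 (SD, n = 3; exact permutation p = 0.25). Cells were also thinned to 1000 UMIs each, which sets 1 depth for all and leaves out cells with fewer. This kept 662 of 675 endothelial cells in A2 HTN, 707 of 722 in SS HTN and 65 of 68 in control library 2, but only 676 of 1614 remaining cells in A2 HTN, 890 of 1767 in SS HTN and 330 of 1882 in control library 2. Of the cells kept, 43.8% of the endothelial ones in A2 HTN, 37.1% in SS HTN and 41.5% in control library 2 held a Prdx1 UMI, against 19.7% in A2 HTN, 20.3% in SS HTN and 20.6% in control library 2 of the remaining ones. Before thinning the endothelial shares were 85.8% in A2 HTN, 65.0% in SS HTN and 76.5% in control library 2. Those of the remaining cells were then 19.0% in A2 HTN, 25.3% in SS HTN and 13.7% in control library 2. The endothelial share was the larger one in each library, both before and after thinning.

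Prdx2, the cytosolic enzyme that is abundant in red cells, stood at 208 CPM in endothelial cells of A2 HTN, 191 CPM in SS HTN, 0 UMIs in control library 1 and 170 CPM in control library 2. The remaining cells had 58.4 CPM in A2 HTN, 43.7 CPM in SS HTN, 28.8 CPM in control library 1 and 54.0 CPM in control library 2. Endothelial levels were thus the higher ones wherever the class had enough cells to measure. The log2 ratio was 1.75 in A2 HTN, 2.01 in SS HTN and 1.57 in control library 2, with a mean of 1.78 ± 0.22 (SD, n = 3 libraries; exact sign-flip permutation p = 0.25, the smallest 3 libraries allow). With the 5 cells of control library 1 the mean is 0.64 ± 2.27 (SD, n = 4; exact permutation p = 0.625). Of the red cell markers, 1 of 7 is in all tables, Slc4a1, and it stood at 0.658 CPM in A2 HTN, 0.537 CPM in SS HTN and 0 in the control within this class; the part of red cell RNA in Prdx2 was not tested.

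Prdx3, the mitochondrial peroxiredoxin, was the least counted enzyme, with 39.5 CPM in endothelial cells of A2 HTN (120 UMIs), 25.2 CPM in SS HTN (47 UMIs), 0 in control library 1 and 32.9 CPM in control library 2 (6 UMIs). The remaining cells had 15.5 CPM in A2 HTN, 15.5 CPM in SS HTN, 12.04 CPM in control library 1 and 19.7 CPM in control library 2. The 3 informative endothelial values were above every value of the remaining cells, with log2 ratios of 1.12 in A2 HTN, 0.56 in SS HTN and 0.62 in control library 2. In control library 2 the interval of the ratio includes 0.

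Prdx5, found in mitochondria, peroxisomes and cytosol, stood in endothelial cells close to or below its level in the remaining cells, control library 1 aside. It reached 118 CPM in A2 HTN, 104 CPM in SS HTN, 240 CPM (2 UMIs) in control library 1 and 98.7 CPM in control library 2, against 115 CPM in A2 HTN, 140 CPM in SS HTN, 122 CPM in control library 1 and 166 CPM in control library 2 among the remaining cells. The log2 ratio was 0.04 in A2 HTN, -0.41 in SS HTN and -0.72 in control library 2, a mean of -0.37 ± 0.38 (SD, n = 3 libraries; exact permutation p = 0.5). With the 5 cells of control library 1 the mean is -0.04 ± 0.73 (SD, n = 4; exact permutation p = 1). In control library 1 a single remaining cell held 20 of its 334 Prdx5 UMIs.

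Prdx6, which acts with a single catalytic cysteine and also has phospholipase activity, was close between classes. Endothelial cells had 58.3 CPM in A2 HTN, 39.7 CPM in SS HTN, 120 CPM (1 UMI) in control library 1 and 49.3 CPM in control library 2, against 46.6 CPM in A2 HTN, 45.8 CPM in SS HTN, 47.8 CPM in control library 1 and 42.3 CPM in control library 2 among the remaining cells. The log2 ratio was 0.29 in A2 HTN, -0.18 in SS HTN and 0.20 in control library 2, and each interval includes 0.

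Nfe2l2 stood at 223 CPM in endothelial cells of A2 HTN, 232 CPM in SS HTN, 360 CPM (3 UMIs) in control library 1 and 236 CPM in control library 2. The remaining cells had 145 CPM in A2 HTN, 134 CPM in SS HTN, 130 CPM in control library 1 and 125 CPM in control library 2. The endothelial values were the higher ones in each library, with log2 ratios of 0.61 in A2 HTN, 0.77 in SS HTN, 1.43 in control library 1 and 0.89 in control library 2 and a mean of 0.93 ± 0.36 (SD, n = 4 libraries, positive in 4 of 4; exact permutation p = 0.125). The ratio in control library 1 rests on 3 UMIs, and without it the mean was 0.76 ± 0.14 (SD, n = 3; exact permutation p = 0.25).

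Keap1 showed a difference between classes mainly in the A2 HTN library. Endothelial cells had 88.9 CPM in A2 HTN, 58.0 CPM in SS HTN, 0 UMIs in control library 1 and 32.9 CPM in control library 2, while the remaining cells had 49.8 CPM in A2 HTN, 45.8 CPM in SS HTN, 31.4 CPM in control library 1 and 33.6 CPM in control library 2. The log2 ratio of endothelial over remaining cells was 0.78 in A2 HTN (95% interval 0.49 to 1.19), 0.31 in SS HTN (-0.05 to 0.74) and -0.03 in control library 2 (-1.55 to 1.20). The interval lay above 0 in A2 HTN alone. Whether these ratios differ between libraries has no replicate check.

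**Figure D1:**
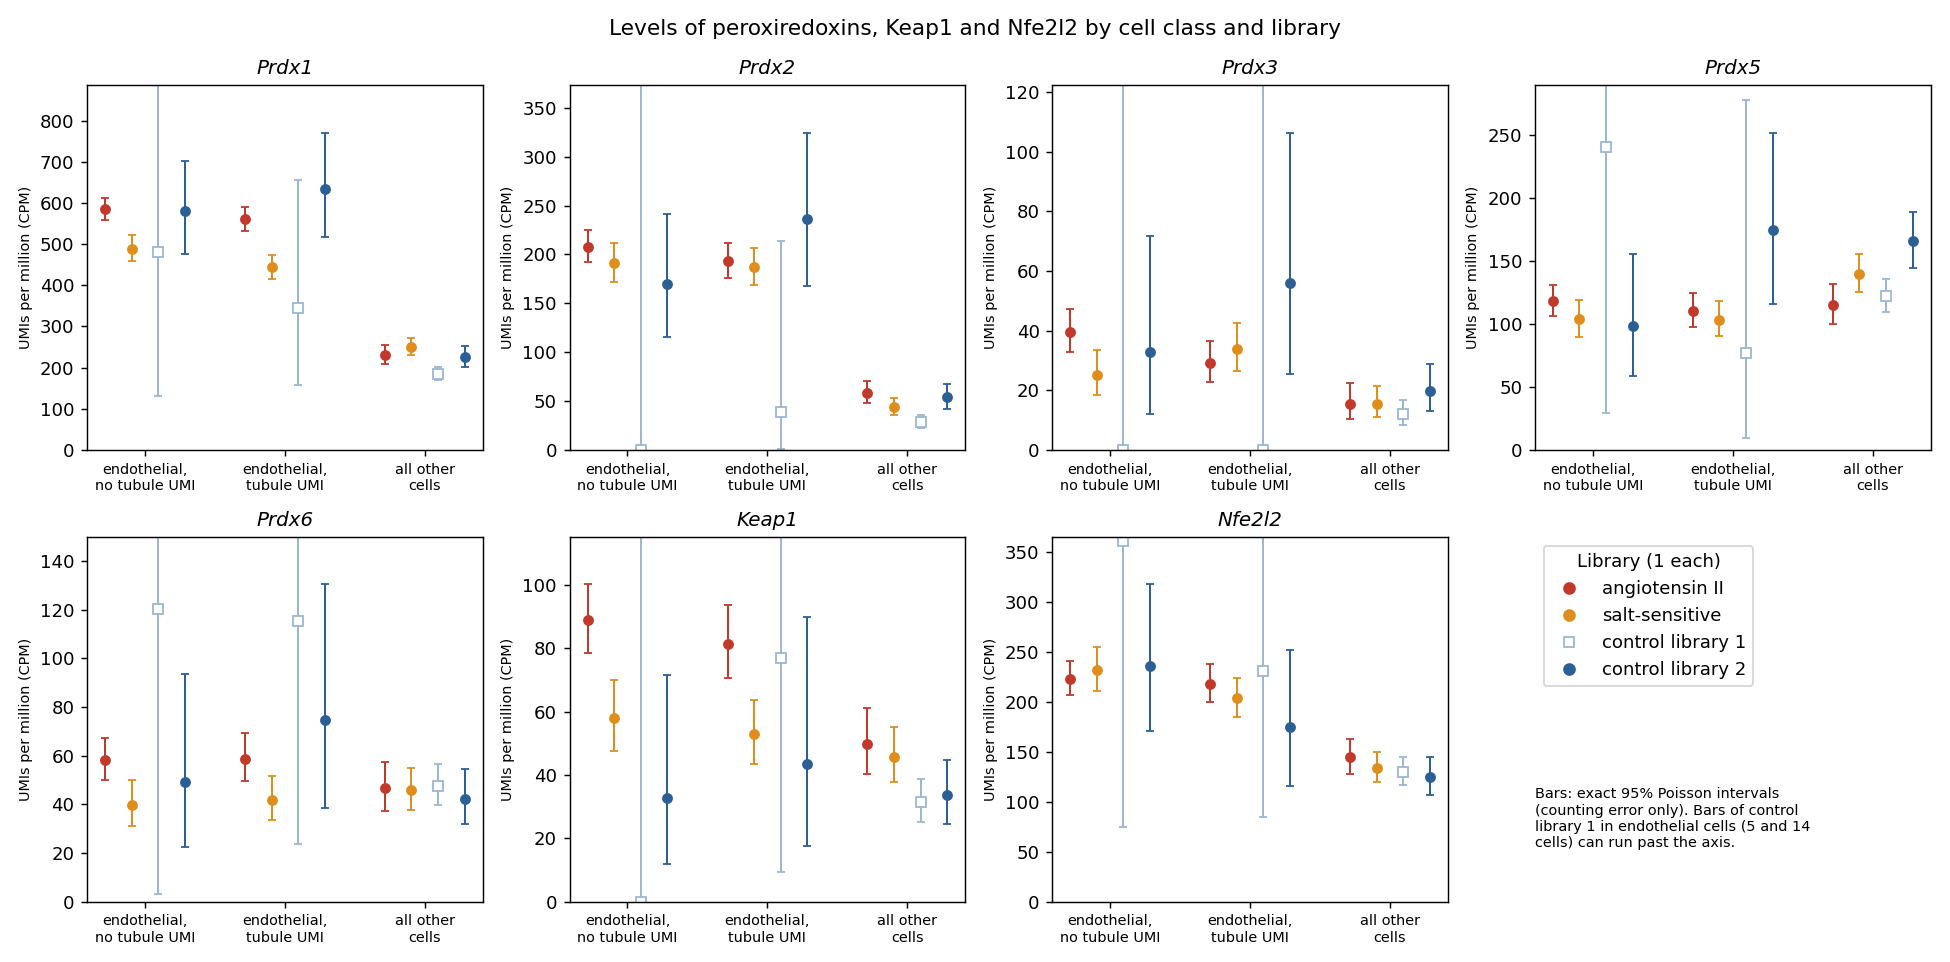
Level of each gene (CPM, vertical axis from 0) in endothelial cells without tubule UMIs, endothelial cells with them and all other cells (horizontal axis), with 1 point per library and exact 95% Poisson intervals. In the same library, Prdx1, Prdx2 and Nfe2l2 stand higher in endothelial cells without tubule UMIs than in other cells, except for Prdx2 in control library 1 (0 UMIs), and Keap1 in endothelial cells without tubule UMIs is at 88.9 CPM in A2 HTN, 58.0 CPM in SS HTN and 32.9 CPM in control library 2; open squares are control library 1, whose endothelial points rest on 5 and 14 cells.

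Of the 7 genes, 3 (Prdx1, Prdx2 and Nfe2l2) were more than 1.5-fold higher in endothelial cells in A2 HTN, SS HTN and control library 2 alike. Of all 10109 genes with at least 20 UMIs in each of these comparisons, 19.4% were.

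**Figure D2:**
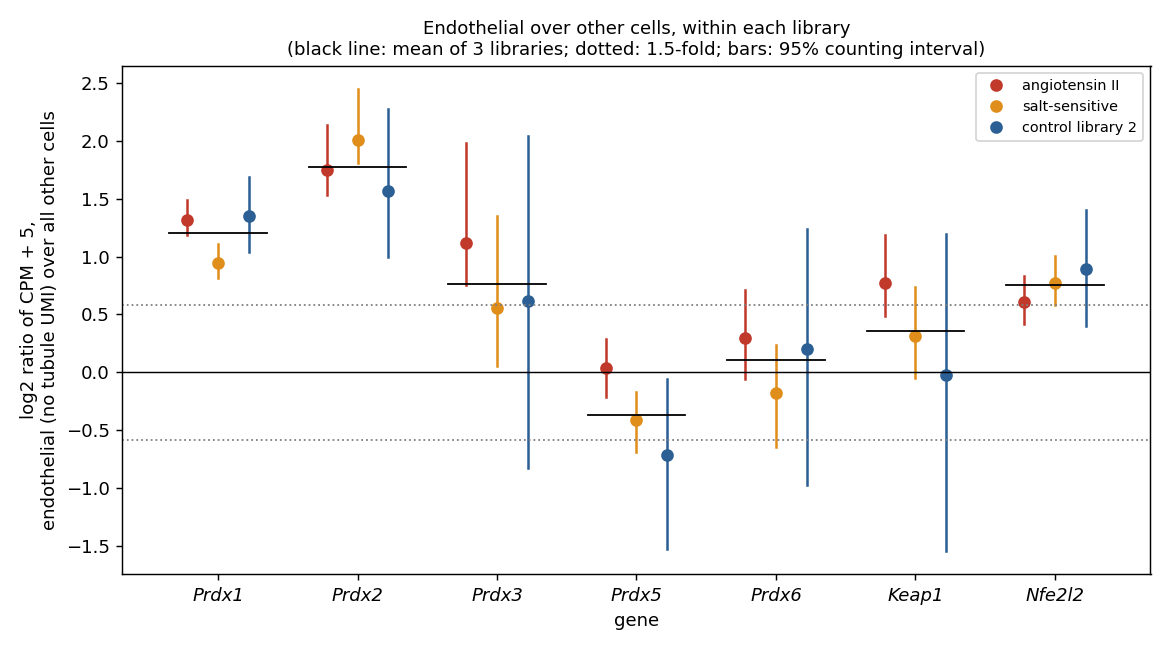
The log2 ratio of CPM + 5 in endothelial cells without tubule UMIs over all other cells (vertical axis) for each gene (horizontal axis) in A2 HTN, SS HTN and control library 2; bars are 95% counting intervals of the plain ratio, black lines are means of the 3 libraries and dotted lines mark 1.5-fold. Prdx2 has the highest mean at 1.78 and Prdx5 the lowest at -0.37.

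The proportions among the 5 peroxiredoxins of the set, which leaves out Prdx4, were alike in endothelial cells of A2 HTN, SS HTN and control library 2. Prdx1 made up 58.0% of their 3065 UMIs in A2 HTN, 57.6% of 1581 in SS HTN and 62.4% of 170 in control library 2. Prdx2 made up 20.6% in A2 HTN, 22.5% in SS HTN and 18.2% in control library 2, and Prdx5 11.7% in A2 HTN, 12.2% in SS HTN and 10.6% in control library 2. Prdx6 made up 5.77% in A2 HTN, 4.68% in SS HTN and 5.29% in control library 2, and Prdx3 3.92% in A2 HTN, 2.97% in SS HTN and 3.53% in control library 2. Among these 5 the order Prdx1, Prdx2, Prdx5, Prdx6, Prdx3 was thus the same in the 3 libraries, as UMI shares that are not corrected for capture. With Prdx4 counted the order was not shared. Prdx4 stood above Prdx5 in A2 HTN (446 against 359 UMIs) and below it in SS HTN (182 against 193). In control library 2 it stood above Prdx2 (34 against 31). UMIs of Keap1 and Nfe2l2 occurred together in 138 of 675 endothelial cells in A2 HTN and in 44 of 722 in SS HTN. If the genes were detected independently, 123 cells in A2 HTN and 40.8 in SS HTN would hold both. Deeper cells hold more UMIs of both genes, and the part of depth in this excess was not tested.

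In the comparison of A2 HTN with control, Keap1 was the gene of the set that differed. Endothelial cells without tubule UMIs had 88.9 CPM of Keap1 in A2 HTN (270 UMIs, interval 78.6 to 100.1) and 31.5 CPM in the control (6 UMIs, 11.5 to 68.5). The log2 ratio was 1.36, with an interval of 0.36 to 2.96. In the control all 6 UMIs came from 5 of the 68 cells of control library 2, and none of the 5 cells of control library 1 held one. Against control library 2 alone the ratio was 1.31 (0.29 to 2.89).

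The other 6 genes were within 1.5-fold. The log2 ratio of A2 HTN over control was 0.02 for Prdx1 (interval -0.26 to 0.31), 0.35 for Prdx2 (-0.16 to 0.93) and -0.11 for Nfe2l2 (-0.54 to 0.35). It was 0.29 for Prdx3, 0.17 for Prdx5 and 0.14 for Prdx6, each with an interval that includes 0 and reaches at least 0.90. Thus 1 of the 7 genes was past 1.5-fold in this comparison, as were 26.6% of the 9445 genes with at least 20 UMIs. Of these genes 15.6% were higher and 11% lower. A set of 7 with 1 such gene is not above that background, and the 6 control UMIs limit the Keap1 value.

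In SS HTN, Keap1 stood at 58.0 CPM (108 UMIs, interval 47.6 to 70.0) against the same 31.5 CPM in the control. The log2 ratio was 0.79, and its interval of -0.29 to 2.36 includes 0. For Prdx1 the ratio of SS HTN over control was -0.24 (-0.52 to 0.06), for Prdx2 0.23, for Prdx3 -0.27, for Prdx5 -0.02, for Prdx6 -0.36 and for Nfe2l2 -0.05, all within 1.5-fold. So 1 of the 7 genes was past 1.5-fold, against 29.8% of 9057 genes, of which 17.9% were higher and 11.8% lower. When endothelial cells with tubule UMIs were added, the Keap1 ratio was 0.43, within 1.5-fold. The 2 hypertension comparisons share the control.

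Between the 2 hypertension libraries the counts were larger. Keap1 was higher in A2 HTN than in SS HTN by 0.58 on the log2 scale (0.29 to 0.95), 1.49-fold and just under the 1.5-fold limit. Prdx6 was at 58.3 CPM in A2 HTN against 39.7 CPM in SS HTN (log2 0.50, 0.15 to 0.96), Prdx3 at 39.5 CPM against 25.2 CPM (0.56, 0.15 to 1.17) and Prdx1 at 585 CPM against 489 CPM (0.26, 0.14 to 0.37). These 4 intervals lie above 0 and Nfe2l2 (-0.05), Prdx2 (0.12) and Prdx5 (0.18) have intervals that include it. None of the 7 was past 1.5-fold, where 12.1% of 10021 genes were (4.74% higher and 7.35% lower). The median endothelial cell held 4820 UMIs in A2 HTN and 2348 UMIs in SS HTN, and the tubule markers outside the rule were at 620 CPM in A2 HTN and 1109 CPM in SS HTN; the part of either in these differences was not tested. Among cells with 2000 to 6000 UMIs, a window chosen after seeing the data, Keap1 was at 92.2 CPM in A2 HTN, 62.7 CPM in SS HTN and 34.2 CPM in the control.

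**Figure D3:**
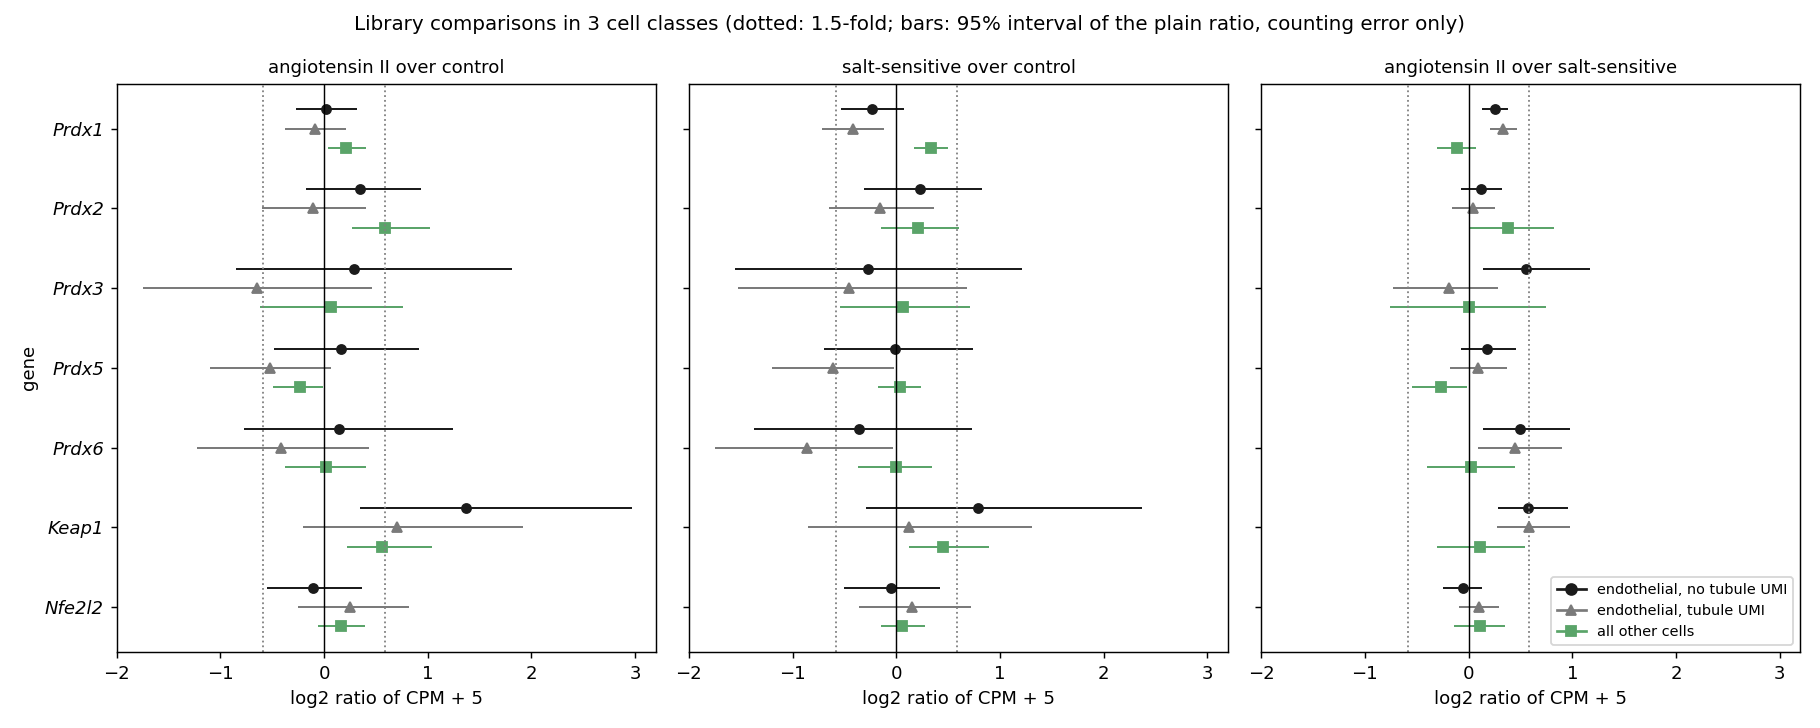
The log2 ratio of CPM + 5 (horizontal axis) for each gene (rows) in A2 HTN over control, SS HTN over control and A2 HTN over SS HTN, in 3 cell classes; bars are 95% intervals of the plain ratio from counting error and dotted lines mark 1.5-fold. In endothelial cells without tubule UMIs, Keap1 is at 1.36, 0.79 and 0.58 in the 3 panels, while Nfe2l2 lies at -0.11, -0.05 and -0.05.

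In endothelial cells without tubule UMIs, the share of cells with a Keap1 UMI was 219 of 675 cells in A2 HTN (32.4%, 28.9 to 36.1), 96 of 722 in SS HTN (13.3%, 10.9 to 15.99) and 5 of 73 in the control (6.85%, 2.26 to 15.3). After thinning to 1000 UMIs it was 8.76% of 662 cells in A2 HTN (6.72 to 11.2), 5.52% of 707 in SS HTN (3.95 to 7.46) and 1 of 69 in the control (1.45%, 0.0367 to 7.81). The level in the thinned control rests on that 1 UMI and is not read as a change. In cells with at least 2 UMIs of the capillary markers Igfbp3, Esm1, Npr3 and Plvap, a rule chosen after seeing the data, Keap1 was at 92.0 CPM in A2 HTN, 59.8 CPM in SS HTN and 35.9 CPM in the control. In the endothelial cells outside that rule it was at 44.8 CPM in A2 HTN (9 UMIs in 60 cells) and 53.0 CPM in SS HTN (26 UMIs in 187 cells), with 0 UMIs in 11 control cells, which allows up to 128 CPM.

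Endothelial cells that did hold a tubule UMI gave a partly different picture. Keap1 was at 81.5 CPM in A2 HTN, 52.9 CPM in SS HTN and 48.2 CPM in the control (9 UMIs), so the log2 ratio over control was 0.70 (-0.20 to 1.91) in A2 HTN and 0.12 (-0.84 to 1.30) in SS HTN. The difference between A2 HTN and SS HTN was again 0.58 (0.28 to 0.97). The share of cells with a Keap1 UMI after thinning was 7.69% of 533 cells in A2 HTN (5.58 to 10.3) and 5.56% of 773 in SS HTN (4.05 to 7.42), against 12.1% of 66 in the control (5.38 to 22.5), so here the control share was the highest, with intervals that overlap. Prdx5 was at 110 CPM in A2 HTN and 103 CPM in SS HTN, against 161 CPM in the control, with log2 ratios of -0.52 in A2 HTN and -0.61 in SS HTN. Prdx6 was at 58.9 CPM in A2 HTN and 41.9 CPM in SS HTN, against 80.4 CPM in the control, with log2 ratios of -0.42 in A2 HTN and -0.86 in SS HTN. Prdx3 was at 29.0 CPM in A2 HTN and 33.8 CPM in SS HTN, against 48.2 CPM in the control (9 UMIs), a log2 ratio of -0.64 in A2 HTN (-1.74 to 0.45). Past 1.5-fold were 2 genes in A2 HTN over control (Prdx3 lower and Keap1 higher), against 30.8% of all genes, and 2 in SS HTN over control (Prdx5 and Prdx6, both lower), against 30.7%. The tubule markers outside the rule summed to 1258 CPM in A2 HTN, 1890 CPM in SS HTN and 2941 CPM in the control in this class. They stood at 10102 CPM in the 14 cells of control library 1 and 1780 CPM in control library 2, and the part of tubule RNA in these ratios was not tested.

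In the remaining cells, where control UMIs are plentiful, Keap1 was at 49.8 CPM in A2 HTN and 45.8 CPM in SS HTN, against 31.4 CPM in control library 1 and 33.6 CPM in control library 2. Both hypertension libraries were above both control libraries. The log2 ratio over the summed control was 0.56 in A2 HTN (0.23 to 1.03) and 0.45 in SS HTN (0.13 to 0.89), with both intervals above 0. Over control library 2 alone it was 0.51 in A2 HTN (0.04 to 1.11) and 0.40 in SS HTN (-0.06 to 0.97), so the interval in SS HTN then includes 0. Between the control libraries the Keap1 ratio was 0.08 (-0.45 to 0.63).

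Prdx1 and Nfe2l2 were also higher in both hypertension libraries than in both control libraries among the remaining cells. Such a separation, with hypertension above, held for 3 of the 7 genes and for 20.8% of all 11049 genes. The levels are given above, and for Prdx1 the log2 ratio over the summed control was 0.22 in A2 HTN (0.05 to 0.39) and 0.33 in SS HTN (0.18 to 0.49). Control library 2 was itself above control library 1 by 0.27 (0.07 to 0.49), and over control library 2 alone the Prdx1 ratio was 0.04 in A2 HTN (-0.17 to 0.26) and 0.15 in SS HTN (-0.04 to 0.36). For Nfe2l2 the ratio intervals over the control include 0. Prdx2 was past 1.5-fold in A2 HTN over the summed control (log2 0.59), where 12.8% of genes were, but control library 2 was itself above control library 1 by 0.80 and A2 HTN was above control library 2 by 0.10. No gene of the 7 was past 1.5-fold in SS HTN over control in these cells, where 8.86% of genes were. The remaining cells are a mixture whose makeup differs between libraries. Macrophage markers (3 of 7 in the tables) summed to 108 CPM in A2 HTN, 112 CPM in SS HTN, 158 CPM in control library 1 and 671 CPM in control library 2. The 9 endothelial markers outside the rule summed to 2339 CPM in A2 HTN and 2368 CPM in SS HTN. They summed to 950 CPM in control library 1 and 1022 CPM in control library 2. These markers were thus higher in both hypertension libraries than in both control libraries, as were Prdx1, Keap1 and Nfe2l2. The part of makeup in the levels of the 7 genes was not tested.

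Around the 7 genes, 4 lists gave the rest of the pathway. The thioredoxin system list (17 genes) had 15 with at least 20 UMIs in A2 HTN and control together, and 2 were past 1.5-fold higher and 1 lower, with a median log2 ratio of -0.06 beside 0.02 for all genes tested, of which 15.6% were higher and 11% lower. Both higher genes, Srxn1, which repairs overoxidised peroxiredoxins, and Glrx, a glutaredoxin, had 0 UMIs in the control. The limit of 3 UMIs is 15.7 CPM there. Srxn1 was at 16.1 CPM and Glrx at 9.22 CPM in A2 HTN, so no bound on the difference follows, and with both set to that limit the list had 0 genes higher and a median of -0.10. Txnrd2, the mitochondrial thioredoxin reductase, was the lower one, at 10.9 CPM in A2 HTN against 26.2 CPM in the control, from 5 control UMIs. In SS HTN over control 2 of 14 were higher and 2 lower (median -0.04, beside 0.03 for all genes, of which 17.9% were higher and 11.8% lower). Glrx2, a mitochondrial glutaredoxin, was at 58.0 CPM in SS HTN against 31.5 CPM in the control (6 UMIs; log2 0.79, -0.29 to 2.36), but at 45.3 CPM in SS HTN against 75.0 CPM in the control (14 UMIs) in endothelial cells with tubule UMIs. Srxn1 again had 0 control UMIs; with it at the limit 1 was higher and the median was -0.17. Lower were Txnrd2, at 9.66 CPM in SS HTN against 26.2 CPM in the control (log2 -1.09, -2.92 to 0.35), and Glrx5, which acts in iron-sulfur cluster assembly. Glrx5 was at 43.0 CPM in SS HTN against 78.6 CPM in the control (log2 -0.80, -1.68 to 0.03). In endothelial cells with tubule UMIs Glrx5 stood the other way, at 53.4 CPM in SS HTN against 42.9 CPM in the control (8 UMIs). Between A2 HTN and SS HTN none of 16 was past 1.5-fold (median 0.12, beside -0.01 for all genes).

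The NRF2 target list (24 genes, of which 22 are in the tables) gave 4 higher and 2 lower of 21 in A2 HTN over control, with a median of -0.04. Srxn1 and G6pdx, the first enzyme of the pentose phosphate pathway, led the higher ones from 0 control UMIs, and with these at the limit 2 were higher and the median was -0.12. Mgst1, a microsomal glutathione transferase, was lower, at 55.3 CPM in A2 HTN against 141.5 CPM in the control (log2 -1.28, -1.95 to -0.71). In endothelial cells with tubule UMIs Mgst1 stood the other way, at 57.7 CPM in A2 HTN and 45.3 CPM in SS HTN against 21.4 CPM in the control (4 UMIs). Also lower was Gclc, the catalytic subunit of the first enzyme of glutathione synthesis, at 46.7 CPM in A2 HTN against 83.9 CPM in the control (16 UMIs; log2 -0.78, -1.59 to 0.00). With tubule UMIs Gclc was at 52.0 CPM in A2 HTN against 48.2 CPM in the control (9 UMIs). In SS HTN over control 3 were higher and 4 lower of 19 (median -0.12; 2 higher and a median of -0.19 with Srxn1 at the limit). Srxn1 led the higher ones with Pgd, an enzyme of the pentose phosphate pathway, at 29.0 CPM in SS HTN against 10.5 CPM in the control (2 UMIs; log2 1.13, -0.46 to 4.55). Mgst1, at 45.6 CPM in SS HTN against 141.5 CPM in the control (log2 -1.53, -2.27 to -0.95), and Gsr, glutathione reductase, at 37.6 CPM in SS HTN against 68.1 CPM in the control, led the lower ones. Between A2 HTN and SS HTN 3 were higher and 1 lower of 22 (median 0.13). Taldo1, transaldolase, was at 198 CPM in A2 HTN against 123 CPM in SS HTN (log2 0.67, 0.47 to 0.92), and Hmox1, heme oxygenase, at 17.1 CPM in A2 HTN against 9.13 CPM in SS HTN. Me1, malic enzyme, was lower, at 3.62 CPM in A2 HTN against 10.2 CPM in SS HTN. Over all genes the shares past 1.5-fold were 15.6% higher and 11% lower in A2 HTN over control, 17.9% higher and 11.8% lower in SS HTN over control, and 4.74% higher and 7.35% lower in A2 HTN over SS HTN.

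Among 14 regulators of NRF2, of which 12 are in the tables, Dpp3, which binds KEAP1, was the 1 higher gene in A2 HTN over control (24.7 CPM in A2 HTN against 10.5 CPM in the control, from 2 UMIs; log2 0.94, -0.67 to 4.31), and 2 were lower. Bach2, a repressor that shares NRF2's partners, was lower, at 72.1 CPM in A2 HTN and 93.96 CPM in SS HTN against 162.5 CPM in the control (log2 -1.12 in A2 HTN and -0.76 in SS HTN). Btrc, the adaptor of another ligase that acts on NRF2, was also lower in A2 HTN, at 37.2 CPM in A2 HTN against 68.1 CPM in the control and 65.5 CPM in SS HTN. Nfe2l1, the relative of Nfe2l2, was at 164 CPM in A2 HTN, 249 CPM in SS HTN and 131 CPM in the control, with a log2 ratio of 0.90 for SS HTN over control and -0.59 for A2 HTN over SS HTN. In SS HTN over control 2 of 12 were higher (Nfe2l1, and Dpp3 at 19.3 CPM in SS HTN) and 1 lower (Bach2). Between A2 HTN and SS HTN none was higher and 2 were lower (Btrc and Nfe2l1). These counts stand beside the same shares over all genes (15.6% higher and 11% lower in A2 HTN over control, 17.9% and 11.8% in SS HTN over control, 4.74% and 7.35% in A2 HTN over SS HTN). The list's median was -0.05 in A2 HTN over control, 0.00 in SS HTN over control and -0.15 in A2 HTN over SS HTN.

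Of the other superoxide and peroxide enzymes (16 genes, 14 in the tables, 13 counted), 1 was higher and 1 lower in A2 HTN over control, with a median of -0.30. Gstp1, a glutathione transferase, was higher, at 112 CPM in A2 HTN against 52.4 CPM in the control (log2 1.03, 0.20 to 2.17), from 10 control UMIs. With tubule UMIs Gstp1 was at 105 CPM in A2 HTN against 75.0 CPM in the control (14 UMIs). Gpx3, the secreted glutathione peroxidase made by proximal tubule, was lower, at 221 CPM in A2 HTN against 356 CPM in the control, and it stood at 471 CPM in SS HTN, the 1 gene of the list past 1.5-fold between A2 HTN and SS HTN (log2 -1.08; median of the list 0.15). Gpx3 is itself one of the tubule markers and reached 6743 to 8947 CPM in the remaining cells of A2 HTN, SS HTN and control library 2; the part of free tubule RNA in its endothelial level was not tested. Prdx4, the peroxiredoxin of the endoplasmic reticulum, was at 147 CPM in A2 HTN and 97.7 CPM in SS HTN, against 183 CPM in the control. It was past 1.5-fold lower in SS HTN over control (log2 -0.88, -1.44 to -0.34). In endothelial cells with tubule UMIs Prdx4 was within 1.5-fold of the control (23 UMIs) in both. The log2 ratio there was 0.17 in A2 HTN (-0.43 to 0.85) and -0.40 in SS HTN (-1.05 to 0.27). In cells without tubule UMIs, Gpx8, an endoplasmic reticulum relative of the glutathione peroxidases, and Gsr were the other lower ones in SS HTN. So 3 of 13 were lower and 0 higher (median -0.05). Gpx8 stood at 43.5 CPM in SS HTN against 83.9 CPM in the control. Of all genes, 15.6% were higher and 11% lower in A2 HTN over control, and 17.9% higher and 11.8% lower in SS HTN over control.

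The same lists were compared between endothelial and remaining cells within each library. In A2 HTN, SS HTN and control library 2 alike, 5 of 14 thioredoxin system genes were past 1.5-fold higher in endothelial cells and 3 lower, where 19.4% of all genes were higher and 34.6% lower. Txn1, cytosolic thioredoxin, was at 802 CPM in endothelial cells of A2 HTN, 728 CPM in SS HTN and 839 CPM in control library 2, against 174 CPM in A2 HTN, 128 CPM in SS HTN and 94.9 CPM in control library 2 among the remaining cells. Txnip, which binds and inhibits thioredoxin, was at 832 CPM in A2 HTN, 920 CPM in SS HTN and 872 CPM in control library 2, against 145 CPM in A2 HTN, 175 CPM in SS HTN and 125 CPM in control library 2 among the remaining cells. Both thioredoxin and its inhibitor were thus the higher ones in endothelial cells of each library. Txnrd1, the cytosolic reductase, was lower, at 51.7 CPM in A2 HTN, 53.7 CPM in SS HTN and 38.4 CPM in control library 2, against 108 CPM in A2 HTN, 105 CPM in SS HTN and 109 CPM in control library 2 among the remaining cells. Prdx4 showed the highest endothelial ratio of the superoxide and peroxide enzymes, with log2 values of 2.36 in A2 HTN, 2.57 in SS HTN and 3.23 in control library 2.

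NRF2 targets gave 4 higher and 7 lower of 19 in the same comparison, the regulators 2 higher and 3 lower of 12, and the superoxide and peroxide enzymes 5 higher and 5 lower of 13. Ephx1, microsomal epoxide hydrolase, was among the higher ones, at 112 CPM in A2 HTN, 98.8 CPM in SS HTN and 82.2 CPM in control library 2, against 44.98 CPM in A2 HTN, 42.9 CPM in SS HTN and 36.5 CPM in control library 2 among the remaining cells. Gclc stood in endothelial cells at 46.7 CPM in A2 HTN, 51.5 CPM in SS HTN and 82.2 CPM in control library 2, against 162 CPM in A2 HTN, 221 CPM in SS HTN and 265 CPM in control library 2 among the remaining cells. Cat, catalase, and Nqo1, a quinone reductase, were lower in endothelial cells in the same way. Their log2 ratios were -1.57 in A2 HTN, -1.81 in SS HTN and -1.68 in control library 2 for Cat, and -1.11 in A2 HTN, -1.04 in SS HTN and -1.28 in control library 2 for Nqo1. Of the regulators, Rbx1, the ring subunit of the CUL3 ligase, and Nfe2l1 were higher in endothelial cells, with Rbx1 at 347 CPM in A2 HTN, 331 CPM in SS HTN and 384 CPM in control library 2, against 117 CPM in A2 HTN, 117 CPM in SS HTN and 111 CPM in control library 2 among the remaining cells. Cul3, the scaffold that binds KEAP1, was within 1.5-fold in all 3 libraries, with log2 ratios of 0.44 in A2 HTN, 0.26 in SS HTN and 0.38 in control library 2.

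**Figure D4:**
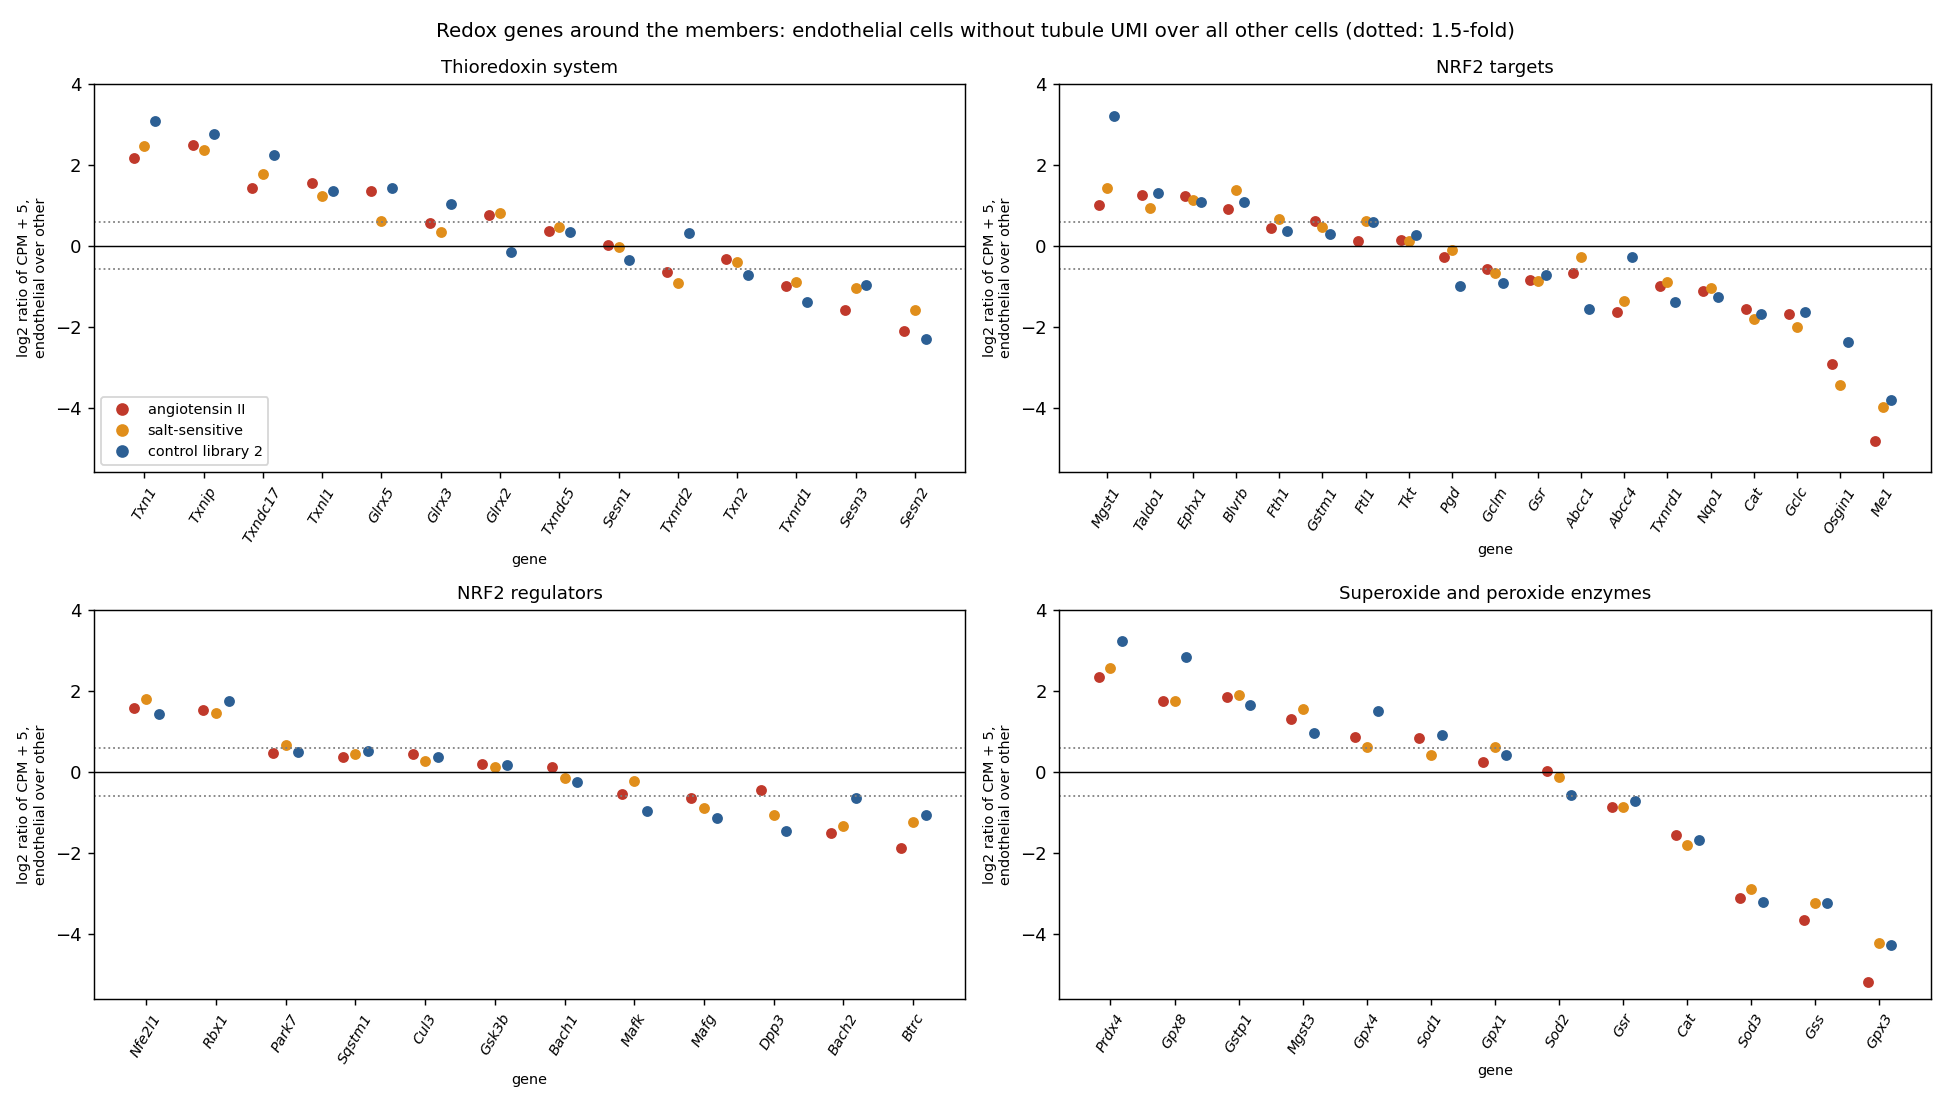
The log2 ratio of CPM + 5 in endothelial cells without tubule UMIs over all other cells (vertical axis) for each gene of 4 redox lists (horizontal axis, sorted by mean), in A2 HTN, SS HTN and control library 2; dotted lines mark 1.5-fold. Txn1 and Txnip stand above 2 in all 3 libraries and Gpx3 below -4, and each list holds genes on both sides.

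Pearson's r was taken over the 11 sums of a class in a library that held at least 10000 UMIs. It compared log2 of CPM + 5 between each of the 7 genes and the other 10310 genes with at least 200 UMIs. The sums share libraries and classes, so r is a description. Among the 7, Prdx1 and Prdx2 were most alike (r = 0.92), followed by Prdx1 and Nfe2l2 (0.83) and by Prdx2 and Prdx3 (0.80), while Keap1 and Nfe2l2 gave 0.61 and Prdx5 and Nfe2l2 -0.67. Nearest to Prdx1 were Trappc6b, Selenof and Ppp1r11 (each 0.99), nearest to Prdx2 were Bri3, Sf3b6 and Sub1 (each 0.99), and nearest to Nfe2l2 were Psmc6, Eif4ebp1 and Epn2 (each 0.98). For Prdx1, 1040 genes had r above 0.9, for Prdx2 702 and for Nfe2l2 341. Keap1 had 2 genes above 0.9, Fam53b and Ssrp1 (each 0.92), with Pgam1 next at 0.87. Prdx3 was nearest to Dpm2, 4921524J17Rik and Cfl2 (each 0.99), Prdx6 to 1110008P14Rik, Scaf1 and Rnf115 (0.94, 0.94 and 0.93), and Prdx5 to Poldip3, Supv3l1 and Top3a (0.90, 0.88 and 0.88).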

How the data were processed

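Single-cell RNA was measured in 4 libraries of mouse kidney cells. The authors deposited raw UMI counts by gene and cell, with no cell annotation, in 4 tables; libraries were matched to groups by the names of the tables and, for the controls, told apart by barcode ending. The submitters' processing notes name the build mm10 and the tools Cell Ranger 7.0.0 and Seurat 4.1, with no step given; the authors' filters are not given in the sources used here. The table that joins both hypertension libraries was an alternative, since its 2727 shared A2 HTN cells hold 88.4% of the UMIs of the separate table.

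Counts of the 11049 genes common to the 3 library tables were added up within each class of each library and expressed as CPM. Ratios are log2 of CPM + 5, with an exact conditional binomial interval of the plain ratio, exact Poisson intervals of levels and exact Clopper-Pearson intervals of shares, all at 95%. Calculations used Python 3.11.15, numpy 2.4.6, pandas 2.3.3 and scipy 1.17.1, and the intervals were tested on simulated data. Genes with at least 20 UMIs in both sums together were counted past 1.5-fold. With 1 library per group no p-value between libraries is given; endothelial over other cells was tested over libraries by exact sign flips. The sign-flip p-values take these libraries, each of a different group, as units and do not measure the size of their spread. The smallest p that the exact sign-flip test allows is 0.125 with 4 libraries and 0.25 with 3. No doublets were removed and no cell was filtered, except that thinning left out cells under 1000 UMIs.

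All 7 members are described. Of the other lists, the genes named per comparison are the 2 highest and 2 lowest past 1.5-fold; those named between classes were chosen after their values were seen. The 7 members and all lists were chosen with earlier results of these data known. List genes not in all tables (Slc7a11, Gsta4, Maff, Palb2, Gpx7, Nnt) are not analysed here. Gene positions come from GENCODE M21 (GRCm38, the assembly of mm10). Alternatives were scaling, pseudocount, count filter, each control library alone, endothelial rule, table, mean over cells, thinning, removal of the deepest cells, and subsets of cells.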

Additional observations from a re-analysis of the deposited data

How the results depend on the processing

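No paired analysis was possible because each group is 1 library; the sign-flip test compares classes within libraries, not groups. Of 298 alternative values of the 7 genes, 284 stayed within the counting interval and 14 moved beyond it. Keap1, the gene past 1.5-fold over control as reported, kept its sign in every alternative. Signs of other genes were not all kept. Prdx1 in A2 HTN over control kept its sign in 9 of 15 alternatives and Prdx5 in SS HTN over control in 10 of 15. Prdx5 in A2 HTN over control ranged from -0.99 to 0.85. Keap1 in A2 HTN over control was positive in 15 of 15 alternatives, at 1.02 to 4.23 (1.02 to 2.47 without the comparison against control library 1 alone), and in SS HTN over control it ranged over 0.43 to 3.66 and was past 1.5-fold in 14 of 15. Leaving out the 5% of cells with most UMIs gave 2.47 in A2 HTN and 1.97 in SS HTN, and thinning gave 2.31 and 1.67. Thinning left 1 Keap1 UMI in the control and control library 1 held 0, so those values are not read as a change. The alternatives reuse the same few control UMIs of Keap1, so the count of positive ones is not independent support. Between A2 HTN and SS HTN, Keap1 ranged over 0.50 to 0.64. The number of the 7 genes past 1.5-fold in A2 HTN over control was 6 against control library 1 alone, 2 after thinning, 2 without the deepest 5% of cells and 2 in capillary-marker cells, where it was 1 as reported. In SS HTN over control it was 6 against control library 1 alone, 2 as a mean over cells and 3 without the deepest cells, where it was 1 as reported; with all endothelial cells it stayed at 1, but the gene was Prdx6 (-0.63) and not Keap1. Between A2 HTN and SS HTN it was 2 with a pseudocount of 1, 3 after thinning and 1 with all endothelial cells, where it was 0 as reported. By the mean over 4 libraries, endothelial over other cells had 3 genes past 1.5-fold, against 6 after thinning, 5 without the deepest cells and 4 without control library 1. The share of all genes past 1.5-fold in each of these alternatives is not printed here. The counts of the 7 genes are thus not read against a background. Of all genes, a filter of 100 UMIs left 1018 past 1.5-fold in A2 HTN over control, 838 in SS HTN over control and 676 in A2 HTN over SS HTN, where 2514, 2695 and 1212 were reported and fewer genes are tested. Control library 1 alone gave 8339 and 7800, and leaving out the deepest cells gave 3831 in A2 HTN over control. The values against control library 1 rest on 5 cells; the cause of the other shifts was not tested. All endothelial cells, capillary-marker cells, the 2000 to 6000 UMI window and the comparison without control library 1 were chosen after seeing the data. Low counts limit the control, whose endothelial class without tubule UMIs holds 73 cells. Keap1 has 6 and Prdx3 6 UMIs there, so differences smaller than their intervals were not detectable.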
